A study of Homo sapiens with 18 samples.

Results

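The transcription factors TFEB and TFE3 and 8 genes of the autophagy machinery (ULK1, BECN1, WIPI1, ATG5, ATG7, MAP1LC3B, GABARAPL1 and SQSTM1) were followed through whole-cell, cytoplasmic and heavy polysomal RNA of DU145 cells treated with GC7. The genes were taken by symbol, and all 10 were present in the authors' deposited table of both fractions (15747 genes) and in that of whole cells (44682 genes). DU145 is a prostate carcinoma line derived from a metastasis. Cells received 40 µM GC7 or vehicle alone for 24 h, and each treatment was sequenced as 3 whole-cell, 3 cytoplasmic and 3 heavy polysomal libraries, 18 libraries in 6 groups. All cells of the polysome experiment also received the elongation inhibitor emetine shortly before lysis, vehicle cells included, per the labels' protocols. The files hold comparisons and no values per library, so levels per library and SDs are missing here. Whether replicates were separate cultures is not stated in the labels, and p-values therefore cover the spread of these libraries only, part of which may be technical.

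GC7 blocks deoxyhypusine synthase, the enzyme that starts the conversion of a lysine of the translation factor eIF5A to hypusine. Hypusinated eIF5A helps the ribosome past sequences that it joins slowly, of which consecutive prolines are the best known. In autophagy a membrane cup is started by the ULK1 kinase and the BECN1 lipid kinase complex, extended with the help of WIPI proteins, coated with LC3 and GABARAP proteins by the conjugation enzymes ATG7 and ATG5, and filled by receptors such as SQSTM1. TFEB and TFE3 switch on genes of autophagy and lysosomes, and synthesis of TFEB protein has been reported to need hypusinated eIF5A in immune cells. DU145 is known to carry a splicing defect of ATG5 and to lack the normal ATG5 protein, which limits the line as a model of LC3 conjugation. Polysomal RNA reports how much of an mRNA sits on many ribosomes and does not report how fast those ribosomes move or how much protein is made.

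Since consecutive prolines are the best known of these sequences, runs of at least 3 proline codons (CCN) were searched in the coding sequence of 1 canonical GENCODE transcript per gene. Those of the genes followed here are shown in capitals with up to 5 codons on either side. Other sequences that the ribosome joins slowly were not searched, so a gene without a run may still need eIF5A. Such a run was present in 4659 of 19730 coding sequences, or 23.6%. TFEB and TFE3 had 2 runs each, as 8.66% of coding sequences had at least 2, and SQSTM1 and ULK1 had 1 each. No run was found in BECN1, WIPI1, ATG5, ATG7, MAP1LC3B or GABARAPL1. ATG3, the enzyme that hands LC3 to its lipid and another reported client of eIF5A, is shown because it had a longer run of 4. Whether its need of eIF5A rests on that run was not tested. The run of SQSTM1 is followed by its last codon before the stop, codon 440. Positions are those of GRCh38, and all sequences read 5′ to 3′ on the coding strand.
TFEB codons 62 to 64, exon 2, chr6:41691007-41691045, minus strand: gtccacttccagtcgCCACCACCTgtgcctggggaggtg
TFEB codons 117 to 119, exon 3, chr6:41690759-41690797, minus strand: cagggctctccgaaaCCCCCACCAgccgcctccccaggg
TFE3 codons 167 to 169, exon 3, chrX:49039119-49039157, minus strand: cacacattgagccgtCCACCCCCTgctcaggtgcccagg
TFE3 codons 218 to 220, exon 4, chrX:49038302-49038340, minus strand: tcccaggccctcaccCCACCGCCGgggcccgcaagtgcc
SQSTM1 codons 437 to 439, exon 8, chr5:179836564-179836590, plus strand: cagtattcaaagcatCCCCCGCCGttg
ULK1 codons 377 to 379, exon 14, chr12:131913215-131913253, plus strand: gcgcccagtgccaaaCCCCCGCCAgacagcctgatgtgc
ATG3 codons 254 to 257, exon 10, chr3:112536483-112536524, minus strand: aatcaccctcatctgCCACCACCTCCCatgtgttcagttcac

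The first question was which of these mRNAs changed on heavy polysomes with GC7. ATG7, the E1-like enzyme that activates LC3, and SQSTM1, the cargo receptor p62, rose on polysomes, and the other 8 did not pass the test. ATG7 was 1.92-fold higher (95% interval 1.48 to 2.49) and SQSTM1 1.54-fold higher (95% interval 1.25 to 1.89). TFEB stood at 0.959-fold (95% interval 0.739 to 1.24). The numerator is named in neither table: the authors' category "UP" is read here as higher with GC7 and the whole-cell sign is reversed to fit it. If that reading were wrong, all directions given here would be the opposite. Fold changes, their SE and their 95% intervals in the fractions are unshrunken values recovered from the authors' shrunken ones unless they are named as deposited, and a gene counts as called where the adjusted p of the authors' deposited table is under 0.05. By that rule 2 of 10 genes were called higher on polysomes and none lower, where 5.61% of all genes were called higher and 5.48% lower.

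**Figure D1:**
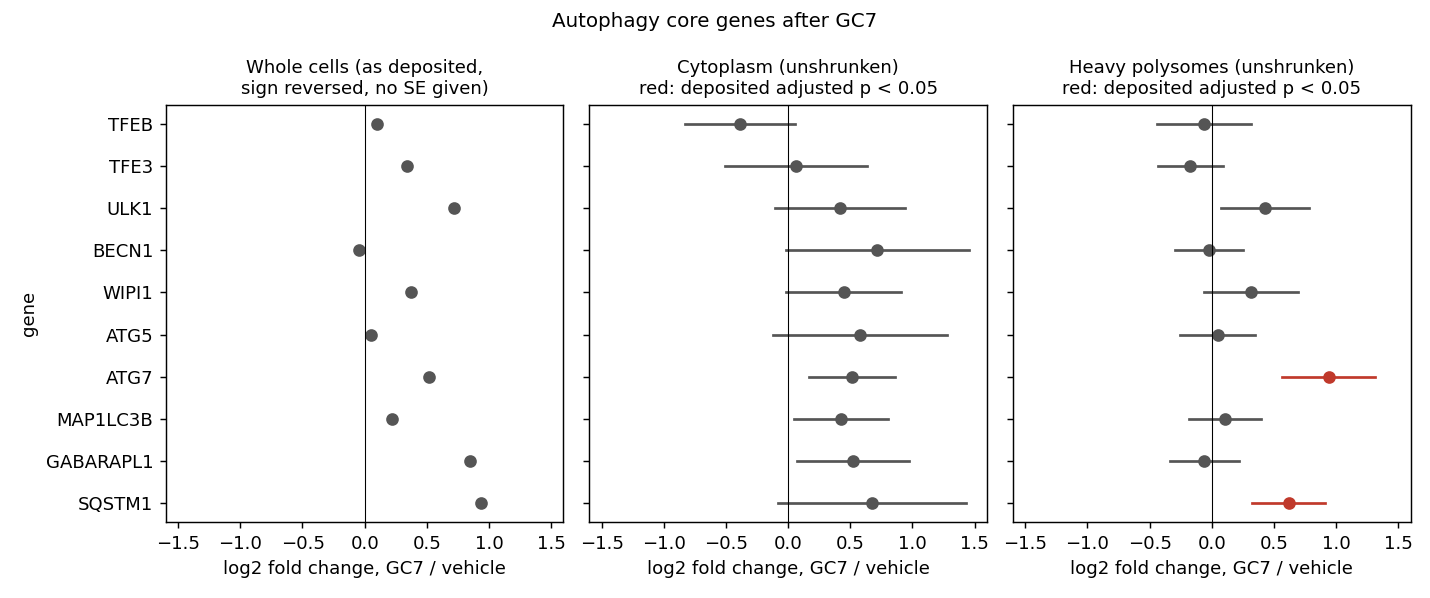
Log2 fold change of GC7 over vehicle (x axis) for each of the 10 genes (rows) in whole cells, cytoplasm and heavy polysomes. Points are the fold changes, lines are 95% intervals where an SE could be had, and red marks ATG7 and SQSTM1 on polysomes, the only 2 called. In cytoplasm 9 of 10 points lie above 0, and TFEB lies below.

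TFEB is encoded on chromosome 6 (41683978 to 41736259, minus strand). Its mean normalized count over both treatments was 267 in cytoplasm and 439 on polysomes by the authors' deposited table, near the middle of all genes (percentiles 42.0 and 44.6). In whole cells its log2 fold change was 0.10 by the authors' deposited table, sign reversed (unadjusted p = 0.914). In cytoplasm the log2 value was -0.39 with an SE of 0.23 (95% interval -0.83 to 0.06), the lowest of the 10 genes, and its adjusted p was 0.412 by the authors' deposited table. On polysomes the value was -0.06 with an SE of 0.19 (95% interval -0.44 to 0.31), and the adjusted p was 0.900 by the authors' deposited table. A fall of TFEB mRNA on heavy polysomes to below 0.739-fold, relative to the other mRNAs there, thus lies outside the 95% interval. Smaller changes in either direction lie inside it. The value sits at percentile 44.2 of all genes on polysomes and at percentile 17.6 in cytoplasm.

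TFE3, the close relative of TFEB encoded on chromosome X (49028726 to 49043410, minus strand), was more abundant than most genes, with a mean normalized count of 2006 in cytoplasm and 4636 on polysomes by the authors' deposited table. Its whole-cell log2 fold change was 0.34 by the authors' deposited table, sign reversed (unadjusted p = 0.374). In cytoplasm it stood at 0.06 (SE 0.29) and on polysomes at -0.17 (SE 0.13, 95% interval -0.44 to 0.09). Neither value was called, with adjusted p-values of 0.950 and 0.480 by the authors' deposited table. The remaining measured transcription regulators of autophagy were not called either: of 6 genes (TFEB, TFE3, MITF, FOXO1, FOXO3 and ZKSCAN3), 5 lay below 0 on polysomes and FOXO3 lay above, at 0.30 (SE 0.19). Over all genes 48.5% lay above 0 on polysomes, and 4.24% were called in cytoplasm and 11.1% on polysomes. A set of 6 genes is too few to read a direction or a lack of calls from. TFEC was in the whole-cell table only, at -0.85 (sign reversed, unadjusted p = 0.234) by the authors' deposited table.

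Among the initiating factors, ULK1, the kinase that starts autophagy when nutrients are short (chromosome 12, 131894622 to 131923150, plus strand), had positive values in all 3 preparations. Its whole-cell log2 fold change was 0.72 by the authors' deposited table, sign reversed (unadjusted p = 0.285). It stood at 0.42 (SE 0.27) in cytoplasm and at 0.43 (SE 0.18, 95% interval 0.08 to 0.78) on polysomes. The polysomal value had an unadjusted p of 0.0167 and an adjusted p of 0.110 by the authors' deposited table, so ULK1 was not called. Its partners were not called, and 4 of the 5 genes of the ULK1 complex lay below 0 on polysomes, with ULK1 the exception. Over all genes 48.5% lay above 0 there and 11.1% were called, and 5 genes are too few to read a direction from.

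BECN1, the regulatory subunit of the class III lipid kinase (chromosome 17, 42810134 to 42833350, minus strand), differed between the fractions in its point values. It was at -0.04 in whole cells by the authors' deposited table, sign reversed (unadjusted p = 0.979), at 0.72 (SE 0.38, 95% interval -0.02 to 1.45) in cytoplasm and at -0.02 (SE 0.14, 95% interval -0.29 to 0.25) on polysomes. The wide cytoplasmic interval and the narrow polysomal one overlap, and neither was called (adjusted p = 0.340 and 0.960 by the authors' deposited table). None of the 8 genes of the class III kinase complexes was called in either fraction, beside 4.24% of all genes in cytoplasm and 11.1% on polysomes. WIPI1, which binds the lipid made by that kinase (chromosome 17, 68420948 to 68457513, minus strand), was the least abundant of the 10 genes, with a mean normalized count of 118 in cytoplasm and 276 on polysomes by the authors' deposited table. It stood at 0.37 in whole cells by the authors' deposited table, sign reversed (unadjusted p = 0.405), at 0.45 (SE 0.24) in cytoplasm and at 0.32 (SE 0.19) on polysomes, without a call. Of its 9-gene group of WIPI and lipid transfer proteins, WDR45 alone was called, higher on polysomes at 0.43 (SE 0.14, adjusted p = 0.00728) by the authors' deposited table. Over all genes 5.61% were called higher there. WDR45, a WIPI relative also known as WIPI4, had a whole-cell value of 1.23 (sign reversed, unadjusted p = 0.0298) by the authors' deposited table.

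Point values of the 2 conjugation enzymes followed here, ATG7 and ATG5, were close in cytoplasm and lay apart in whole cells and on polysomes. The 2 genes were not tested against each other. ATG7 (chromosome 3, 11272309 to 11557665, plus strand) had a whole-cell log2 fold change of 0.52 by the authors' deposited table, sign reversed (unadjusted p = 0.374). In cytoplasm it stood at 0.51 (SE 0.17, 95% interval 0.17 to 0.86), the smallest cytoplasmic p of the 10 genes, with an adjusted p of 0.0674 by the authors' deposited table and thus no call. On polysomes it stood at 0.94 (SE 0.19, 95% interval 0.57 to 1.31), with an adjusted p of 5.25e-05 by the authors' deposited table, at percentile 97.4 of all genes. The deposited, shrunken polysomal value was 0.87 (SE 0.20) by the authors' deposited table. ATG7 has no run of proline codons, while SQSTM1, the other gene that rose, has one.

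ATG5, which with ATG12 completes the conjugation of LC3 (chromosome 6, 106045423 to 106325791, minus strand), stood at 0.05 in whole cells by the authors' deposited table, sign reversed (unadjusted p = 0.957). In cytoplasm it was at 0.58 (SE 0.36, 95% interval -0.12 to 1.28) and on polysomes at 0.05 (SE 0.15, 95% interval -0.25 to 0.35). It was not called in either fraction. Values per gene do not separate spliced forms, so the share of ATG5 RNA that is spliced normally in these cells was not measured. Of the 10 conjugation enzymes, ATG7 was the only one called, in polysomes, where 5.61% of all genes were called higher. On polysomes 3 of 10 lay above 0, beside 48.5% of all genes, and in cytoplasm 7 of 10, beside 48.7%. ATG3, with the run of 4 proline codons shown above, stood at 0.52 (SE 0.26) in cytoplasm and at 0.02 (SE 0.13, 95% interval -0.23 to 0.27) on polysomes, without a call.

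The LC3 and GABARAP proteins are the small ubiquitin-like coats of the autophagosome. MAP1LC3B (chromosome 16, 87383953 to 87404779, plus strand) stood at 0.22 in whole cells by the authors' deposited table, sign reversed (unadjusted p = 0.786), at 0.42 (SE 0.19, 95% interval 0.04 to 0.81) in cytoplasm and at 0.11 (SE 0.15) on polysomes. GABARAPL1 (chromosome 12, 10212458 to 10223128, plus strand) stood at 0.85 in whole cells by the authors' deposited table, sign reversed (unadjusted p = 0.0867), at 0.52 (SE 0.23, 95% interval 0.07 to 0.97) in cytoplasm and at -0.06 (SE 0.14, 95% interval -0.34 to 0.22) on polysomes. Cytoplasmic unadjusted p-values were 0.0292 for MAP1LC3B and 0.0234 for GABARAPL1 by the authors' deposited table, and the adjusted values of 0.245 and 0.221 were not called. MAP1LC3B and GABARAPL1 have near-identical retrocopies, MAP1LC3B2 and GABARAPL3, so their values are uncertain by any reads that the counting split between copies. GABARAPL2, a further family member, was the only one called, and it fell on polysomes, by 0.47 on the log2 scale (SE 0.17, adjusted p = 0.0111) by the authors' deposited table. It was 1 of 5 measured family members, beside 5.48% of all genes called lower there.

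SQSTM1 (chromosome 5, 179806398 to 179838078, plus strand) was the most abundant of the 10 by mean normalized count, not corrected for length, at 12742 in cytoplasm and 23943 on polysomes by the authors' deposited table. In whole cells SQSTM1 stood at 0.93 by the authors' deposited table (sign reversed), which was the highest of the 10 and the only one with an unadjusted p under 0.05, at 0.0415. At that threshold 2.08% of the genes found in both tables were higher in whole cells, and after Benjamini-Hochberg adjustment over all genes none of the table passed (0.0%). In cytoplasm SQSTM1 stood at 0.67 (SE 0.39, 95% interval -0.09 to 1.43), without a call. The deposited cytoplasmic value was 0.19 (SE 0.27) by the authors' deposited table, smaller because shrinkage acts most on values with a large SE. On polysomes it stood at 0.62 (SE 0.15, 95% interval 0.32 to 0.92), with an adjusted p of 0.00153 by the authors' deposited table. Point values of SQSTM1 were thus alike in cytoplasm and on polysomes, and the polysomal SE was less than that of cytoplasm.

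Of the 13 selective autophagy receptors, 3 were called higher on polysomes and 1 lower, beside 5.61% and 5.48% of all genes. Besides SQSTM1, its relative NBR1 rose by 0.39 (SE 0.17, adjusted p = 0.0358) and CCPG1, a receptor of endoplasmic reticulum known as a target of the unfolded protein response, rose by 0.83 (SE 0.25, adjusted p = 0.00174) by the authors' deposited table. BNIP3, a receptor of mitochondria known to respond to hypoxia, fell by 0.47 (SE 0.15, adjusted p = 0.00501) by the authors' deposited table. None of the 13 was called in cytoplasm, where 2.29% of all genes were higher and 1.95% lower. The receptors had an unshrunken polysomal median of 0.27, where all genes had -0.01.

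As a group, the 10 genes had a median log2 fold change of 0.35 in whole cells, with 9 of 10 above 0, where 46.9% of the genes found in both tables lay above 0. In cytoplasm the unshrunken median was 0.48, with 9 of 10 above 0 against 48.7% of all genes, and on polysomes it was 0.08, with 6 of 10 above 0 against 48.5%. All genes had medians of -0.03, -0.01 and -0.01 in whole cells, cytoplasm and polysomes, unshrunken in the fractions. The deposited, shrunken medians of the 10 genes were smaller, at 0.21 in cytoplasm and 0.05 on polysomes, against -0.0036 and -0.0049 over all genes. No member was called in cytoplasm, where 2.29% of all genes were called higher and 1.95% lower. At an unadjusted p under 0.05, 3 of 10 (ATG7, MAP1LC3B and GABARAPL1) were higher in cytoplasm, against 7.31% of all genes. The 10 genes were chosen with earlier results of these data known, so these counts are a description.

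**Figure D2:**
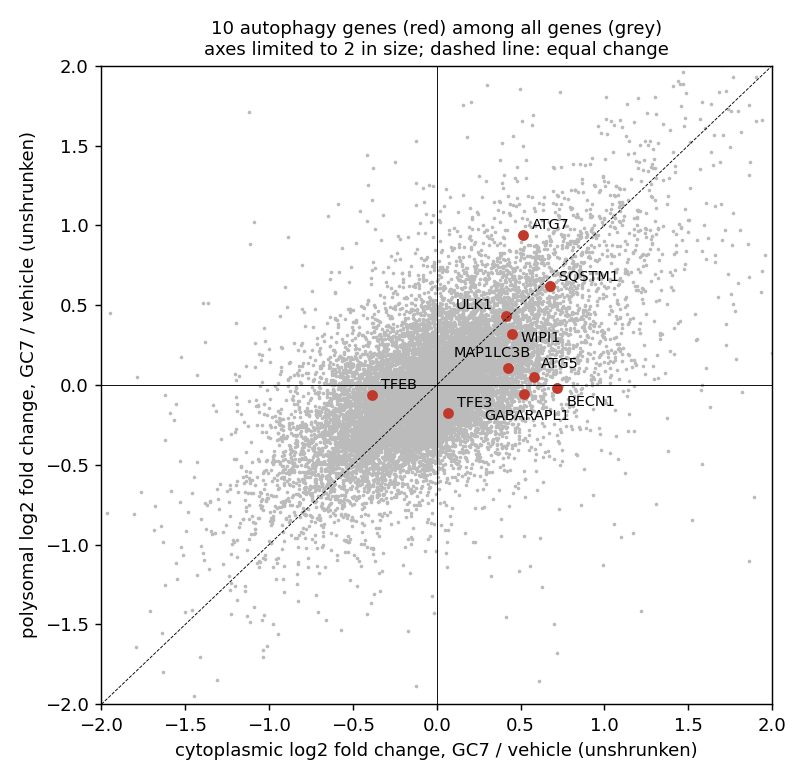
Unshrunken log2 fold change of GC7 over vehicle in cytoplasm (x axis) and on heavy polysomes (y axis), with the 10 autophagy genes in red and all other genes in grey, each point a gene. BECN1, ATG5, GABARAPL1 and MAP1LC3B lie right of 0.4 in cytoplasm and near 0 on polysomes, below the dashed line of equal change, and ATG7 and TFEB lie above that line, with ULK1 nearly on it.

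The second question was whether the response on polysomes differed from that in cytoplasm, which measures a change in ribosome loading relative to the other mRNAs. The authors normalized the fractions separately, so a change in loading shared by all mRNAs would not show in it. None of the 10 genes passed the test of this difference. The difference, polysomal minus cytoplasmic log2 fold change, was 0.33 for TFEB (SE 0.30, 95% interval -0.26 to 0.91), so a drop in relative loading below 0.837-fold lies outside the interval. TFE3 stood at -0.24 (SE 0.32), SQSTM1 at -0.05 (SE 0.42), ULK1 at 0.01 (SE 0.32) and WIPI1 at -0.13 (SE 0.30). ATG7 had the highest value, 0.43 (SE 0.26, 95% interval -0.08 to 0.93). The lowest were BECN1 at -0.74 (SE 0.40, 95% interval -1.52 to 0.05), GABARAPL1 at -0.58 (SE 0.27, 95% interval -1.11 to -0.05) and ATG5 at -0.53 (SE 0.39, 95% interval -1.29 to 0.24), followed by MAP1LC3B at -0.32 (SE 0.24). GABARAPL1 thus passed at an unadjusted p under 0.05, where 1.05% of all genes were lower and 1.09% higher by that rule. After Benjamini-Hochberg adjustment of this normal test over 15743 genes, none of the 10 and no other gene passed (0.0% of all). At an unadjusted p under 0.05 there were 172 higher and 166 lower genes, 2.15% together, which is less than uniform p-values give. The test takes the errors of both fractions as independent, which makes it strict if they vary together. Data were also simulated from this comparison's SE, with independent errors and no change in cytoplasm. There a true difference of 1 on the log2 scale was called for 29.0% of changed genes and a difference of 2 for 81.0%. In that setting, values of the size seen here would mostly not be called. The real data gave fewer small p-values than independent errors do, so these shares may not carry over to them.

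**Figure D3:**
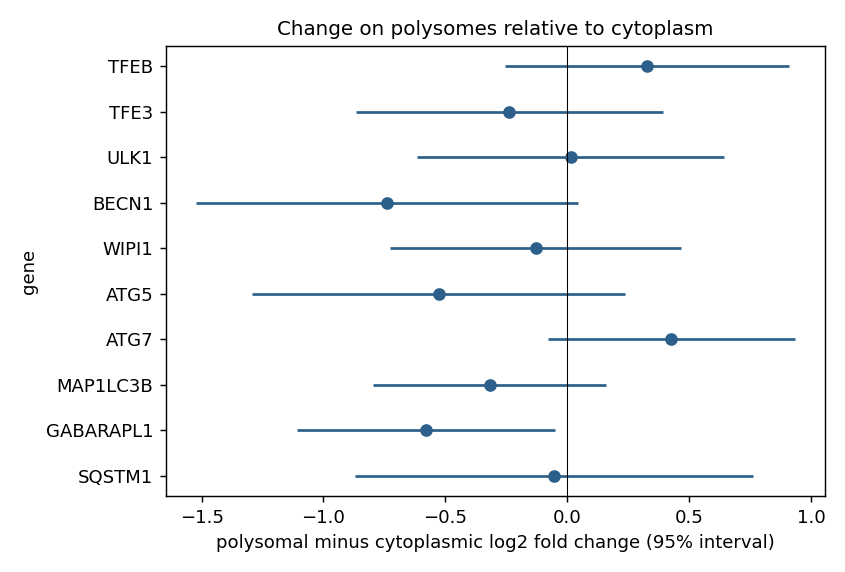
Polysomal minus cytoplasmic log2 fold change (x axis) for the 10 genes (rows), with 95% intervals as lines. The interval of GABARAPL1 ends just below 0, at -0.05, and those of the other 9 genes include 0.

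The small coat proteins shared a sign in this comparison. All 5 measured members of the LC3 and GABARAP family had a negative difference, with GABARAPL2 at -0.75 (SE 0.32), GABARAPL1 at -0.58, GABARAP at -0.54 (SE 0.27), MAP1LC3B at -0.32 and MAP1LC3A at -0.09 (SE 0.25). Over all genes 49.0% had a difference below 0, and none of the 5 passed adjustment. The 3 GABARAP genes had an unadjusted p under 0.05, where 1.05% of all genes were lower by that rule. GABARAP, GABARAPL2 and MAP1LC3A were named after their values were seen, so the shared sign is a description. The 3 GABARAP genes had positive values in cytoplasm (0.29 for GABARAP, 0.52 for GABARAPL1 and 0.20 for GABARAPL2) and negative ones on polysomes (-0.25, -0.06 and -0.55). Their coding sequences are short, at 351 bases for each GABARAP gene, 363 for MAP1LC3A and 375 for MAP1LC3B. Among 12860 genes with a coding sequence, the 2584 with the shortest (75 to 750 bases) had a median difference of -0.08 and a median of -0.15 on polysomes, and 4 groups of longer ones had median differences between -0.0044 and 0.06. The part of coding length in the values of this family was not tested.

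Over all genes, the response was also set beside proline codons. The median difference between fractions was 0.05 over the 3373 measured genes with at least 1 run of 3, 0.06 over the 1268 with at least 2 and -0.0045 over the 9487 with none. Their polysomal medians were -0.02, -0.04 and -0.02. Genes with runs had longer coding sequences, with a median of 2043 bases against 1245, and no test was made of these medians. Of the 4 members with a run, SQSTM1 was called on polysomes, beside 9.75% of all genes with a run, and of the 6 without one, ATG7, beside 12.1% of those without.

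Mean normalized counts on polysomes relative to cytoplasm, which the authors normalized separately, give a rough rank of ribosome association over both treatments. The ratio was 3.09 for BECN1 (percentile 98.3 of all genes), 2.77 for GABARAPL1 (97.2) and 2.35 for WIPI1 (93.3), against a median of 1.42 over all genes. TFEB had a ratio of 1.64 (percentile 67.4) and ATG7 had the lowest of the 10, 1.18 (percentile 30.9). Genes with the highest ratios, BECN1 and GABARAPL1, were thus also the 2 with the lowest difference, and ATG7, with the lowest ratio, had the highest difference. Ratio and difference are computed from the same libraries, so they are not independent.

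Lists of related genes, chosen like the 10 genes with earlier results known, place these values in the pathway. Of 106 further symbols of the autophagy and lysosome lists, 102 were in the table of the fractions. In cytoplasm 1 was called higher (TPP1) and 1 lower (GLA), beside 2.29% and 1.95% of all genes. On polysomes 6 were called higher and 9 lower, beside 5.61% and 5.48% of all genes. Without the 10 genes the lists had an unshrunken median of 0.03 in cytoplasm and -0.06 on polysomes, against 0.48 and 0.08 for the 10. The deposited, shrunken medians were 0.01 and -0.04, against 0.21 and 0.05 for the 10.

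A list of genes that control TFEB at the lysosome held mTORC1, the Rag GTPases and the Ragulator scaffold, which keep TFEB inactive in fed cells, and also genes that act the other way, such as TSC1. Of these 21 genes, 3 fell on polysomes and none rose, beside 5.48% and 5.61% of all genes. The unshrunken polysomal median was -0.20, against -0.01 over all genes. TSC1, a brake on mTORC1, fell by 0.48 (SE 0.15, adjusted p = 0.00508) by the authors' deposited table. Of the Ragulator subunits, LAMTOR4 fell by 0.46 (SE 0.19, adjusted p = 0.0232) and LAMTOR5 by 0.49 (SE 0.17, adjusted p = 0.00951) by the authors' deposited table. None of the 21 was called in cytoplasm, beside 2.29% of all genes higher and 1.95% lower. Among 11 genes for the fusion of autophagosomes with lysosomes, the SNARE proteins VAMP8 and YKT6 fell on polysomes, by 0.44 (SE 0.19, adjusted p = 0.0294) and by 0.37 (SE 0.13, adjusted p = 0.0176) by the authors' deposited table, and no gene of that list rose, beside the same shares of all genes on polysomes as above.

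Lysosomal genes known as TFEB targets were mixed in their calls. On polysomes 3 of 25 measured genes rose and 2 fell, beside 5.61% and 5.48% of all genes. There 20 of 25 lay above 0, against 48.5% of all genes, with an unshrunken median of 0.34 against -0.01, and TFEB mRNA itself stood at -0.06. TPP1, a lysosomal peptidase, rose by 0.64 on polysomes (SE 0.23, adjusted p = 0.00891) and by 0.44 in cytoplasm (SE 0.18, adjusted p = 0.0486) by the authors' deposited table. NAGLU, an enzyme of heparan sulfate breakdown, rose by 0.59 (SE 0.15, adjusted p = 0.000413) on polysomes by the authors' deposited table. GLA, an alpha-galactosidase, fell by 0.45 in cytoplasm (SE 0.14, adjusted p = 0.00646) and by 0.43 on polysomes (SE 0.14, adjusted p = 0.00573) by the authors' deposited table. ATP6V0D1, a subunit of the proton pump, fell by 0.33 on polysomes (SE 0.15, adjusted p = 0.0499) by the authors' deposited table. In whole cells 19 of 25 lay above 0, against 46.9% of the genes found in both tables, with a median of 0.29 and none at an unadjusted p under 0.05. In cytoplasm 14 of 25 lay above 0, against 48.7% of all genes, with an unshrunken median of 0.03.

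**Figure D4:**
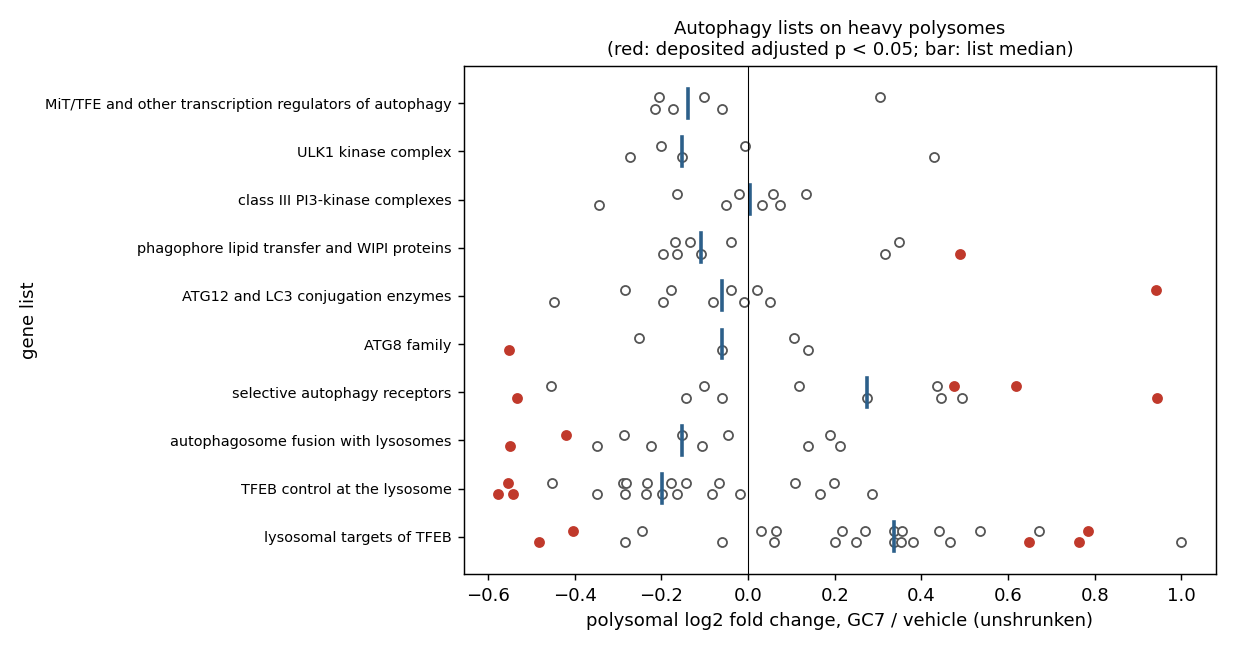
Unshrunken log2 fold change on heavy polysomes (x axis) for the genes of 10 autophagy and lysosome lists (rows), each point a gene. Red points were called by the authors' deposited table, and blue bars are list medians. The bars of the selective receptors and of the lysosomal targets, at 0.27 and 0.34, lie right of 0, and that of the genes controlling TFEB, at -0.20, lies left of it.

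The 3 genes of these lists nearest to TFEB in their cytoplasmic and polysomal values, by Euclidean distance over both log2 fold changes among 111 genes, were NEU1, ATG9A and VPS16. They stood at -0.39, -0.42 and -0.48 in cytoplasm and at -0.06, -0.13 and -0.05 on polysomes. The likeness rests on 2 values per gene, with SEs from 0.14 to 0.51.

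Promoters were searched because TFEB and TFE3 bind the E-box CACGTG and its extended form TCACGTGA, and because ATF4, the factor of the integrated stress response, binds TGATGNAAN. RefSeq windows of 250 bases before to 50 after the start (GRCh38.p14) were searched on both strands, where the shorter E-box lies inside the longer form. None of the 15 windows of the 10 genes held any of these 3 motifs, of which CACGTG was found in 7.26% of all 35116 windows, TCACGTGA in 0.980% and TGATGNAAN in 3.61%. Of the 26 listed symbols of lysosomal targets, 14 were matched to a window, and 8 of these held CACGTG, where 8.77% of all 27305 genes did. That list was chosen as known TFEB targets, so a high share of the motif that TFEB binds is no separate finding.

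Stress genes and the drug's own pathway give the scale. TRIB3, a target of ATF4, stood at 1.70 in cytoplasm (SE 0.19) and at 1.70 on polysomes (SE 0.15), and SESN2, a stress-induced inhibitor of mTORC1, at 0.77 (SE 0.16) and 1.00 (SE 0.17) by the authors' deposited table. Beside them the deposited ATG7 value on polysomes was 0.87, and those of the other 9 genes were smaller, by the authors' deposited table. EIF5A mRNA fell by 0.39 in cytoplasm (SE 0.16, adjusted p = 0.0486) and by 0.44 on polysomes (SE 0.14, adjusted p = 0.00410) by the authors' deposited table. In whole cells EIF5A stood at 0.45 by the authors' deposited table (sign reversed, unadjusted p = 0.524). DHPS, the target of GC7, was at -0.0039 on polysomes (SE 0.12) by the authors' deposited table. Neither mRNA checks that the enzyme was blocked.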

How the data were processed

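GC7-treated and vehicle-treated DU145 cells were compared in 3 RNA preparations, with 3 libraries per group by the labels. The submitters' processing notes name GRCh38, Salmon 1.4.0 and STAR 2.7.8a, without their roles. Both files are the authors' comparisons, so tests on counts and leaving out replicates were not possible. For whole cells the authors deposited, per the file headers, a log fold change, read as log2, and a p-value for 44682 genes, of which 18021 share the value of genes without reads. Benjamini-Hochberg adjustment over all of them was added here. The table of the fractions holds, per the file headers, the authors' mean normalized count (over all libraries of a fraction), log2 fold change with its SE, p-value and adjusted p-value. Library depth is unknown.

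Neither table names its numerator. The category "UP" of the authors, which matched the sign and thresholds of all 15747 genes, was read as higher with GC7. Whole-cell values as deposited correlated negatively with the fractions across genes (Spearman -0.27 and -0.37; genes are not independent replicates), so their sign was reversed. Fold changes deposited for the fractions are shrunken, as their ratio to the SE does not match the p-value. A Cauchy prior was fitted (scale 0.197 and 0.203, natural log) so that the recovered estimate over its SE gives the deposited p-value, which held within 0.1 on the z scale for 99.7% and 99.8% of genes. The difference between fractions leaves out 4 genes that missed by over 0.5. That difference was tested with a normal test and adjusted over 15743 genes. On data simulated with independent errors, 10 of 15543 unchanged genes were called.

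The genes and lists were chosen with earlier results of these data known. Named were all members, list genes called in a fraction, up to 2 others per list by polysomal p, and a few genes for scale; the text gives a selection, 1 called gene is counted in its list but not reported here by name, and the further members of the LC3 and GABARAP family and ATG3 were named after their values were seen. Coding sequences are from GENCODE v44 (GRCh38) and were used in place of protein sequences; 81.7% of the genes of the fractions had one. Python 3.11.15, numpy 2.4.6, pandas 2.3.3 and scipy 1.17.1 were used.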

Additional observations from a re-analysis of the deposited data

How the results depend on the processing

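Counting only genes that also changed by over 1 on the log2 scale, the authors' category, leaves 0 of the 10 genes called on polysomes in place of 2, and 166 in place of 668 genes in cytoplasm and 214 in place of 1746 on polysomes over the whole table. Of the single genes named from the lists, members included, all 19 calls in a fraction failed that rule. The 2 calls of members held with p-values adjusted anew, among genes with a mean normalized count of at least 100, and with unshrunken values. Those settings reuse the deposited p-values or values fitted to give them. They could thus hardly change the calls and are no separate support. With deposited, shrunken values the SQSTM1 difference between fractions turned to 0.37, since its cytoplasmic value is shrunken more. With an error correlation of 0.5 between fractions, 25 genes of the table passed in place of 0, none of the 10 among them, and with shrunken values 1 passed. Unadjusted p-values at that correlation were 0.00384 for GABARAPL1, 0.0197 for ATG7 and 0.0247 for BECN1. At that setting 1347 of 15743 genes, or 8.56%, had an unadjusted p under 0.05. The other counts of called genes kept their value. No paired analysis was possible because the files hold comparisons without values per library, and for the same reason no replicate could be left out.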
